A study of Apis mellifera with 24 samples.

Results

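The transposable element (TE) annotation of the honey bee, Apis mellifera, holds entries that were never placed in a class, and 3057 of its 34760 entries were of this kind outside chromosome 16. They were taken as every entry whose identifier carried neither the ClassI or ClassII tag nor a 3-letter order code for a retrotransposon or a DNA transposon. Another 61 unclassed entries lay on chromosome 16 and were left out, so the 3057 were set against the 30544 other TEs outside that chromosome. Only the antisense comparisons with ovaries had another background, namely all TEs, with chromosome 16 and the unclassed entries included. The choice used identifiers and positions only, not counts, but it was made with earlier results of these data known.

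TEs are silenced in animal gonads by PIWI proteins, which are guided by PIWI-interacting RNAs (piRNAs). Most piRNAs are cut from long precursor transcripts of genomic regions called piRNA clusters, which are rich in old TE copies, and an antisense piRNA can pair with the transcript of the TE that it matches. A repeat annotation also holds sequences that are repeated in the genome without being a recognisable TE. The label noCat marks a repeat with no category, PotentialHostGene marks a repeat that resembles a gene of the bee itself, and the label XXX-chim carries no order code that can be read as a class.

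Small RNAs were sequenced from 5 reproductive tissues in 24 libraries. Eggs under 24 h old gave 8 libraries, from mated queens (fertilised and unfertilised) and from virgin queens (laid in worker and drone cells). The virgin queens had been narcotised with carbon dioxide to induce laying, which the paper names as a possible confounder. Testes of drone pupae gave 8 libraries by the sample labels, of which 3 were taken at 24 h, 2 at 72 h and 3 at 144 h after pupation. The paper describes a single colony and 2 libraries for each age, so the origin of the further libraries is not given. The spermatheca, the sperm store of a queen, gave 3 libraries and ovaries gave 3. Both were dissected from the same set of naturally mated, laying adult queens, so these columns are not independent in animals. Semen of adult drones gave 2. Each tissue has 1 column of counts, which was matched to its libraries by the tissue name and taken as their pooled value. Which libraries entered a column is not given in the sources used here. If all did, the eggs column spans mated and virgin queens, and the testes column spans the 3 ages. No value below has a replicate check, an SD or a p-value, and the 95% Wilson intervals leave out every error but that of counting. The libraries carried no molecular identifiers, so PCR copies of a molecule were counted as separate reads. The tables hold piRNA-sized reads, not mRNAs, so the tissues could not be checked against marker genes.

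The columns differ in depth. The counts on TEs outside chromosome 16 came to 18621833 in eggs, 929326 in testes, 1448854 in spermatheca, 127716 in semen and 12804232 in ovaries. Of these the unclassed entries held 167657 in eggs, 86930 in testes, 68457 in spermatheca, 3408 in semen and 125764 in ovaries. With these totals, a count of 0 allows a share of the unclassed counts of up to 0.00179% in eggs, 0.00345% in testes, 0.00438% in spermatheca, 0.088% in semen and 0.00239% in ovaries. Sequencing runs moved with tissue. Semen shared a flow cell with the 4 libraries of virgin queen eggs, ovaries with 2 of the spermatheca libraries, and the 8 testes libraries with the remaining spermatheca library, and the part of the run in any difference below was not tested.

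Of the 3057 entries, 1748 were labelled PotentialHostGene, 1238 noCat and 56 XXX-chim, 14 had no label at all and 1 joined several labels. The labels separated short entries near genes from longer ones. PotentialHostGene entries had a median length of 174 bp, and 861 of them (49.3%) overlapped an annotated gene, against a median of 198 bp and 37.7% among the other TEs. The noCat entries had a median length of 682 bp, 377 (30.5%) overlapped a gene, and 894 lay on scaffolds with no chromosome. Only 17 PotentialHostGene entries (0.973%) shared a base with a piRNA cluster, against 47 noCat entries (3.8%), all 14 entries without a label and 4.17% of the other TEs. The clusters are the 199 that the study defined from these same libraries, so counts inside them describe the libraries and are not independent of them. All counts of an entry were taken as inside a cluster when the entry shared at least 1 base with it.

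Most entries of the annotation were silent, classed or not. No count was listed in any tissue for 1944 of the 3057 unclassed entries (63.6%) and for 21888 of the 30544 other TEs (71.7%). More than 3 counts in at least 1 tissue were found for 467 unclassed entries (15.3%), against 12.1% of the other TEs. The 467 were 261 PotentialHostGene, 193 noCat and 13 unlabelled entries. None of the 56 XXX-chim entries passed 3 counts. The number with more than 3 counts was 247 in eggs, 250 in testes, 274 in spermatheca, 55 in semen and 249 in ovaries. As a share of all unclassed entries this was 8.08% in eggs, 8.18% in testes, 8.96% in spermatheca, 1.8% in semen and 8.15% in ovaries. The shares for the other TEs were 8.96% in eggs, 4.6% in testes, 6.17% in spermatheca, 0.946% in semen and 9.19% in ovaries. The share of unclassed entries lay below that of the other TEs in eggs and ovaries and above it in testes, spermatheca and semen, which pooled columns do not allow to be tested. More than 3 counts in all 5 tissues were found for 38 entries, of which 34 were PotentialHostGene and 4 noCat. Another 66 passed 3 counts in testes alone, against 37 in ovaries alone and 3 in semen alone.

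The unclassed entries took a larger part of the TE counts in the male tissues and the spermatheca than in eggs and ovaries. They held 0.900% (95% Wilson interval 0.896 to 0.905%) of the counts on TEs outside chromosome 16 in eggs, 9.35% (9.30 to 9.41%) in testes, 4.72% (4.69 to 4.76%) in spermatheca, 2.67% (2.58 to 2.76%) in semen and 0.982% (0.977 to 0.988%) in ovaries. A single entry in each tissue carried much of this. Without the leading unclassed entry of each tissue the shares were 0.612% in eggs, 3.63% in testes, 1.84% in spermatheca, 1.10% in semen and 0.804% in ovaries. In semen the share also turned on a classed TE: without ms43364, which held 80687 of the 127716 counts, the unclassed entries took 7.25%.

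The counts of the labels changed places between tissues. PotentialHostGene entries held 9.63% of the unclassed counts in eggs, 98.2% in testes, 82.1% in spermatheca, 96.2% in semen and 15.5% in ovaries. The noCat entries held 77.5% in eggs, 1.75% in testes, 15.6% in spermatheca, 3.70% in semen and 68.1% in ovaries. The 14 entries without a label held 12.9% in eggs, 0.0552% in testes, 2.32% in spermatheca, 0.117% in semen and 16.3% in ovaries. The spermatheca thus lay between the ovaries of the same set of mated queens and the male tissues. Leaving out the entry ms13635, described below, PotentialHostGene entries held 8.88% in eggs, 95.1% in testes, 52.5% in spermatheca, 90.6% in semen and 11.6% in ovaries, so the order of the tissues did not rest on it.

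Counts inside piRNA clusters followed the noCat and unlabelled entries. Clusters held 91.4% (91.2 to 91.5%) of the unclassed counts in eggs, 1.24% (1.17 to 1.32%) in testes, 17.3% (17.0 to 17.6%) in spermatheca, 0.939% (0.666 to 1.32%) in semen and 85.8% (85.6 to 86.0%) in ovaries. These shares turned on single entries, and without the leading unclassed entry of each tissue they were 87.3% in eggs, 3.41% in testes, 45.8% in spermatheca, 2.32% in semen and 82.6% in ovaries. In testes, spermatheca and semen that entry was ms13635. The share of counts inside clusters was not computed for the other TEs, so the tissue order is not shown to be particular to unclassed entries. The paper reports a like order for all its putative piRNA reads, highest in ovaries and eggs and lowest in semen. It puts the spermatheca close to ovaries and eggs, however, unlike the unclassed entries here. Its reads also include those on chromosome 16 and outside TEs, so only the order can be set beside it. It proposes that many reads of this size in testes and semen were not true piRNAs or were made in another way. Within the noCat entries alone the cluster share stayed high in most tissues, at 96.2% in eggs, 60.1% in testes, 89.7% in spermatheca, 21.4% (27 of 126 counts) in semen and 94.5% in ovaries. Within the PotentialHostGene entries it was 41.3% in eggs, 0.139% in testes, 1.19% in spermatheca, 0.0305% in semen and 32.7% in ovaries. Scaffolds with no chromosome carried 83.8% of the unclassed counts in eggs, 6.69% in testes, 21.0% in spermatheca, 13.5% in semen and 75.2% in ovaries.

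**Figure D1:**
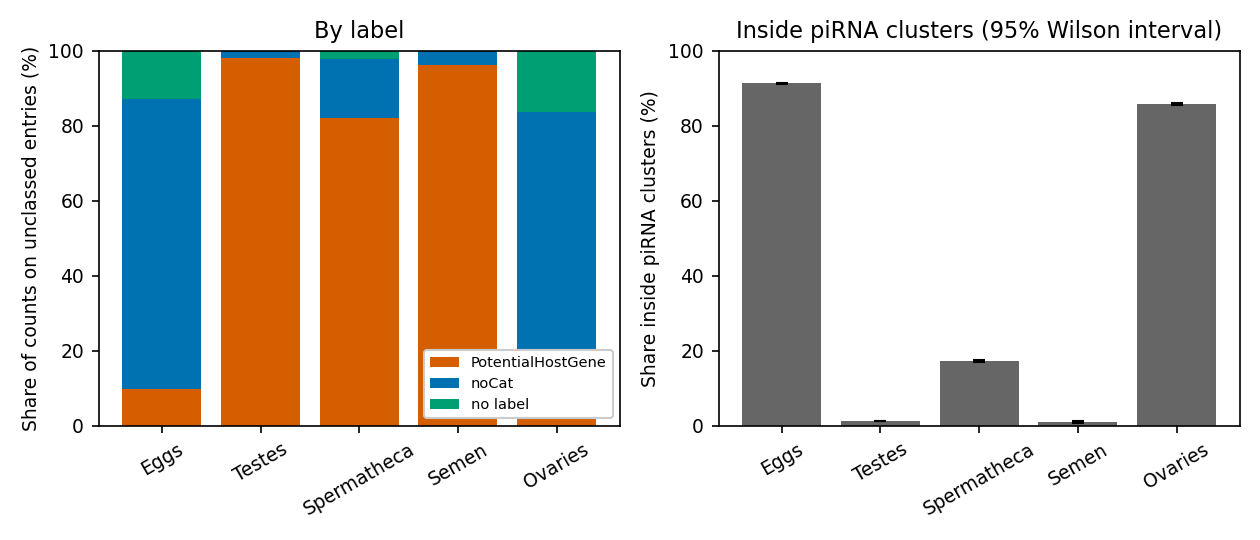
Left, the percentage of counts on unclassed TE entries that fell on each label, stacked for each tissue; right, the percentage that fell inside piRNA clusters, with 95% Wilson intervals for counting error. PotentialHostGene entries held 98.2% of the counts in testes and 15.5% in ovaries, and clusters held 1.24% in testes and 85.8% in ovaries.

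The leading entries differed accordingly. Of the 10 entries with the most counts, 9 lay in a cluster in eggs, 0 in testes, 6 in spermatheca, 0 in semen and 8 in ovaries. PotentialHostGene entries made up 2 of the 10 in eggs, all 10 in testes, 4 in spermatheca, all 10 in semen and 2 in ovaries. These 10 held 82.6% of the unclassed counts in eggs, 85.9% in testes, 81.1% in spermatheca, 77.3% in semen and 76.1% in ovaries, so in each tissue few of the 3057 entries carried the signal.

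In eggs and ovaries the counts centred on cluster 98, which spans positions 14522 to 166216 of the unplaced scaffold GroupUn20 in the Amel 4.5 build. It holds 5 unclassed entries, 4 noCat and 1 PotentialHostGene. Together they had 84827 counts in eggs, 177 in testes, 5493 in spermatheca, 22 in semen and 41697 in ovaries, which was 50.6% of the unclassed counts in eggs and 33.2% in ovaries. The noCat entry ms39527 led them. It covers 87 bp (GroupUn20, 82953 to 83039, minus strand), overlaps no gene and shares its last base with a part of a classed DNA transposon, DNA-1_CQ. Its antisense counts were 53760 in eggs, 110 in testes, 3262 in spermatheca, 19 in semen and 22978 in ovaries, and its sense counts were 293 in eggs and 0 in the other 4 tissues. It was thus high in eggs and ovaries, where it held 32.2% and 18.3% of the unclassed counts, and low in testes and semen.

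Depth differs between the columns, so each antisense count was also set against ovaries after scaling by the trimmed mean of M-values (TMM) over all antisense TE counts of the pair. With library totals in place of TMM every log2 ratio to ovaries would shift by -0.40 in eggs, 1.48 in testes, -0.07 in spermatheca and -1.23 in semen, so the ratios given for testes and semen depend on the scaling. On that scale ms39527 was 65.1-fold lower in testes than in ovaries, while the ratio to ovaries was 2.16 in eggs, 1.15 in spermatheca and 0.293 in semen. The neighbouring noCat entry ms39508 (GroupUn20, 65202 to 65467, minus strand, 266 bp) had antisense counts of 15107 in eggs, 50 in testes, 1602 in spermatheca, 2 in semen and 8017 in ovaries. It was 50-fold lower in testes than in ovaries after scaling. The third, ms39509 (139815 to 140269, plus strand, 455 bp), was read in the sense direction, with 15582 counts in eggs, 17 in testes, 618 in spermatheca, 1 in semen and 10625 in ovaries, and with 0 antisense counts in all 5. The remaining members of the cluster were weak, since the noCat entry ms39486 had 72 counts in eggs and 60 in ovaries and the PotentialHostGene entry ms39510 had 9 in eggs and 12 in ovaries.

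The sense and antisense labels of these entries hide a shared direction. Cluster 98 is listed on the plus strand, and entries on the minus strand were counted as antisense there while entries on the plus strand were counted as sense. Along the genome, 84530 of the 84827 egg counts and 41692 of the 41697 ovary counts in the cluster lay on the plus strand. The 297 minus-strand counts in eggs included the 293 sense counts of ms39527. Over all 28 clusters with unclassed entries and a single listed strand, of 33 with such entries, 99.5% (99.5 to 99.6%) of the counts lay on the listed strand in eggs, 94.3% (92.7 to 95.5%) in testes, 99.2% (99.0 to 99.4%) in spermatheca, 87.1% (71.1 to 94.9%, 27 of 31 counts) in semen and 99.7% (99.7 to 99.7%) in ovaries. The listed strand was assigned by the study from the same reads.

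Other clusters held entries with the same tissue order. The noCat entry ms38791 (GroupUn9, 125573 to 132295, plus strand, 6723 bp) in cluster 93 had 15046 sense counts in eggs, 5 in testes, 1406 in spermatheca, 1 in semen and 14805 in ovaries. Cluster 93 is listed as active on both strands, yet 15046 of 15049 counts on this entry in eggs and 14805 of 14806 in ovaries lay on the plus strand. The noCat entry ms51576 (GroupUn23, 102182 to 105544, plus strand, 3363 bp) in cluster 101 had antisense counts of 5389 in eggs, 3 in testes, 365 in spermatheca, 1 in semen and 5240 in ovaries. Both had high counts in eggs and ovaries and few in testes and semen. The scaled antisense ratio of ms51576 to ovaries was 0.949 in eggs and 0.565 in spermatheca, so its lower spermatheca count lay within 5-fold of ovaries once depth was taken into account.

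Some abundant cluster entries were picked out with their values in view. The noCat entry ms45194 (GroupUn169, 30865 to 31106, minus strand, 242 bp, cluster 158) had 5460 sense counts in eggs, 21 in testes, 961 in spermatheca, 0 in semen and 5598 in ovaries. It lies inside GB55026 on the opposite strand. The PotentialHostGene entry ms39735 (GroupUn23, 60778 to 61523, minus strand, 746 bp, cluster 100) had 4370 antisense counts in eggs, 9 in testes, 421 in spermatheca, 1 in semen and 2191 in ovaries. It was 75.9-fold lower in testes than in ovaries after TMM scaling. A PotentialHostGene entry outside every listed cluster, ms49219 (GroupUn2901, 1 to 5078, plus strand), behaved like the cluster entries, with 5410 sense counts in eggs, 0 in testes, 592 in spermatheca, 0 in semen and 5595 in ovaries. The label PotentialHostGene therefore did not by itself mark entries that were low in ovaries.

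**Figure D2:**
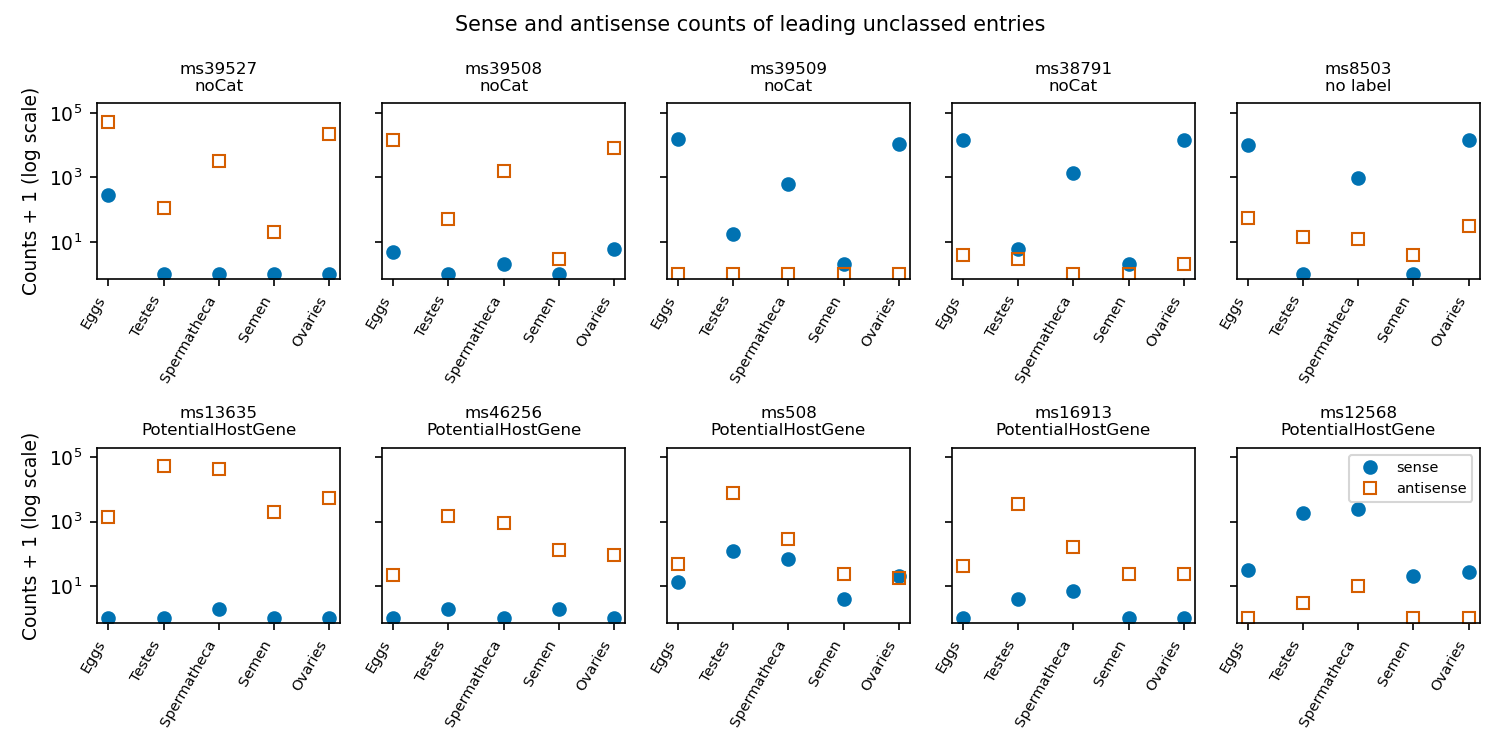
Sense (filled circles) and antisense (open squares) counts plus 1, on a log scale, of 10 abundant unclassed entries in the 5 pooled tissue columns, not scaled for depth. The upper row holds cluster entries such as ms39527 (53760 antisense counts in eggs, 110 in testes) and the lower row holds PotentialHostGene entries outside clusters such as ms508 (7750 antisense counts in testes, 17 in ovaries).

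The 14 entries without a label formed a single run at the sex determination locus. They lie end to end on chromosome 3 from 11116990 to 11136996, cover 19523 of 20007 bp, and have no base between them at 9 of 13 borders, with a largest gap of 237 bp. All lie in cluster 20 (chromosome 3, 11105082 to 11186765, minus strand), and 13 of the 14 are on the minus strand. The run crosses feminizer (Fem, GB47020, 11118557 to 11123186), whose splicing sets the female pathway in honey bees, the gene GB47021 (11127526 to 11133605) and the start of complementary sex determiner (Csd, GB47022, 11135135 to 11146488), whose allelic state is the first signal of sex in this species. These genes are on the plus strand, opposite to 13 of the 14 entries. The gene tables give each gene as a single span, so exons and introns could not be told apart.

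Reads on the run had the reverse direction to these genes in eggs, spermatheca and ovaries. The 14 entries had 21569 counts in eggs, 48 in testes, 1587 in spermatheca, 4 in semen and 20518 in ovaries. Along the minus strand lay 99.7% of them in eggs (99.6 to 99.7%), 0 of 48 in testes (an upper limit of 7.41%), 98.8% in spermatheca (98.1 to 99.2%), 0 of 4 in semen and 99.8% in ovaries. Thus the few reads of the testes ran along the strand of the genes, and those of eggs, spermatheca and ovaries ran against it.

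Within the run the counts were uneven. The entry ms8503 (11127740 to 11136063, 8324 bp), which covers most of GB47021 and the first 929 bp of Csd, had 10352 sense counts in eggs, 0 in testes, 991 in spermatheca, 0 in semen and 14232 in ovaries. Its antisense counts were 54 in eggs, 13 in testes, 11 in spermatheca, 3 in semen and 31 in ovaries. The short entry ms8531 (11122441 to 11122591, 151 bp), which lies wholly inside Fem, had 7717 sense counts in eggs, 0 in testes, 230 in spermatheca, 0 in semen and 2936 in ovaries. It was picked out with its values in view, as were the other entries of the run apart from ms8503.

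Per kilobase of entry, ms8531 reached 51146 counts in eggs, 0 in testes, 1523 in spermatheca, 0 in semen and 19444 in ovaries. The next entries in ovaries were ms8530 at 3082 counts per kb and ms8503 at 1713, with 1109 and 1250 in eggs. Together ms8503 and ms8531 held 84.1% of the counts of the run in eggs, 27.1% (13 of 48) in testes, 77.6% in spermatheca and 83.8% in ovaries. At the low end, ms8496 had 1 count in eggs and 2 in ovaries over 172 bp. The ratio of eggs to ovaries also varied along the run, since ms8531 had more counts in eggs and ms8530 and ms8503 had more in ovaries. In the same cluster but beyond Csd, the PotentialHostGene entry ms8487 (chromosome 3, 11150457 to 11150962, plus strand, 506 bp), which overlaps GB47023 on the same strand, had antisense counts of 1097 in eggs, 1 in testes, 107 in spermatheca, 0 in semen and 2895 in ovaries. Its reads too lay along the minus strand.

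**Figure D3:**
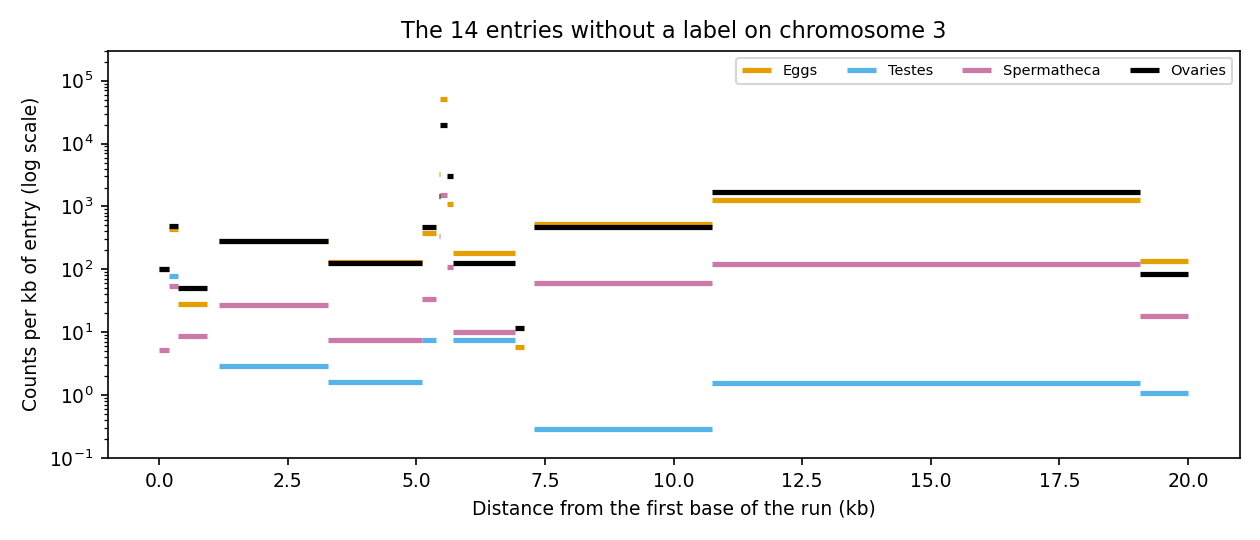
Counts per kb of entry (log scale, sense plus antisense) of the 14 unlabelled entries on chromosome 3, drawn at their distance in kb from the first base of the run, for 4 tissues; entries with 0 counts and semen (4 counts in all) are not drawn. The 151 bp entry ms8531 stands highest, at 51146 counts per kb in eggs and 19444 in ovaries, and no entry passes 76.9 in testes.

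In testes, spermatheca and semen a single PotentialHostGene entry held most of the unclassed counts. The entry ms13635 spans 10251 bp of chromosome 6 (781077 to 791327, minus strand) and lies in no cluster. Its antisense counts were 1376 in eggs, 55192 in testes, 42580 in spermatheca, 2030 in semen and 5586 in ovaries, with 1 sense count in spermatheca and 0 in the other tissues. It made up 0.821% of the unclassed counts in eggs, 63.5% in testes, 62.2% in spermatheca, 59.6% in semen and 4.44% in ovaries. After TMM scaling it was 31.7-fold higher in testes, 61.8-fold higher in spermatheca and 129-fold higher in semen than in ovaries, and the ratio of eggs to ovaries was 0.227.

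The counts of ms13635 matched those of a gene inside it. The gene GB51201 (chromosome 6, 787153 to 789036, plus strand), which covers 18.4% of the entry, had sense counts equal to the antisense counts of ms13635 in each of the 5 tissues. The gene GB51200, which covers 29.4% of the entry, had 0 counts in all 5. The antisense signal of this entry was therefore also the sense signal of an annotated gene. A second entry with a similar pattern, ms46256 (GroupUn267, 17443 to 19692, plus strand, 2250 bp), had antisense counts of 21 in eggs, 1529 in testes, 899 in spermatheca, 135 in semen and 91 in ovaries. After scaling it was 53.9-fold higher in testes, 80.1-fold higher in spermatheca and 525-fold higher in semen than in ovaries. It overlaps GB53877, which the RefSeq table pairs with LOC100578988, the same gene as the pair GB51202 and GB51203 inside ms13635. GB53877 had at most 2 counts in either direction in any tissue. GB51202 had 1 sense count in spermatheca and otherwise 0, and GB51203 had 0 throughout. The reads of ms46256 and ms13635 were thus hardly counted on the gene they share. How reads that map to several places were counted is not given in the sources used here, so ms13635 and ms46256 are uncertain as separate signals.

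Other PotentialHostGene entries were high in testes above all. The entry ms508 (chromosome 1, 3040272 to 3040770, plus strand, 499 bp) had antisense counts of 47 in eggs, 7750 in testes, 290 in spermatheca, 23 in semen and 17 in ovaries. It lies wholly inside GB50342 on the same strand and held 7750 of the 8067 antisense counts of that gene in testes. After scaling it was 1462-fold higher in testes, 138-fold higher in spermatheca and 479-fold higher in semen than in ovaries. These ratios rest on 17 ovary counts.

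The entry ms16913 (chromosome 7, 3187665 to 3188142, minus strand, 478 bp) had antisense counts of 42 in eggs, 3572 in testes, 164 in spermatheca, 23 in semen and 22 in ovaries. After scaling it was 521-fold higher in testes, 60.5-fold higher in spermatheca and 370-fold higher in semen than in ovaries, on 22 ovary counts. It lies inside GB53783 on the opposite strand, and that gene had 3590 sense counts in testes, so nearly all of them lay on the entry. The entry ms20794 (chromosome 8, 10550017 to 10550556, minus strand, 540 bp) overlaps no gene and had antisense counts of 5 in eggs, 1967 in testes, 42 in spermatheca, 2 in semen and 8 in ovaries. It was 789-fold higher in testes and 42.6-fold higher in spermatheca than in ovaries, ratios that rest on 8 ovary counts. The 86 bp entry ms12568 (chromosome 5, 10163126 to 10163211, plus strand) was read in the sense direction and was highest in spermatheca, with 31 counts in eggs, 1798 in testes, 2567 in spermatheca, 20 in semen and 26 in ovaries.

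Some entries had their highest count in semen although that column was the shallowest. The entry ms34465 (chromosome 15, 6390028 to 6390407, minus strand, 380 bp) had sense counts of 5 in eggs, 38 in testes, 13 in spermatheca, 95 in semen and 2 in ovaries. It lies inside GB50099, whose sense counts were 239 in eggs, 179 in testes, 157 in spermatheca, 177 in semen and 159 in ovaries. The entry thus held most of the sense counts of the gene in semen and few of them in ovaries. The entry ms6247 (chromosome 2, 15003994 to 15004466, minus strand), picked out with its values in view, had a like order, with 4 sense counts in eggs, 22 in testes, 13 in spermatheca, 49 in semen and 1 in ovaries.

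Against ovaries, the entry with the highest antisense ratio in semen was ms13298 (chromosome 5, 13090572 to 13090730, plus strand, 159 bp), which lies inside EF1a-F2 (GB41358), a translation elongation factor gene, on the opposite strand. Its antisense counts were 23 in eggs, 9 in testes, 54 in spermatheca, 45 in semen and 12 in ovaries, or 1328-fold higher in semen than in ovaries after scaling. The sense counts of EF1a-F2 were 856 in eggs, 34238 in testes, 25805 in spermatheca, 929 in semen and 1887 in ovaries, so the entry held a small part of them. The entry ms31563 (chromosome 13, 9101039 to 9106234, minus strand, 5196 bp) inside GB49866 had antisense counts of 0 in eggs, 8 in testes, 2 in spermatheca, 5 in semen and 0 in ovaries. The ratio of semen to ovaries was at least 590, a bound computed against 3 counts in ovaries and resting on 5 counts in semen. The TMM scale made 1 ovary count worth 0.00282 semen counts, so few reads in semen give a high ratio.

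A group of PotentialHostGene entries on separate scaffolds had nearly the same counts. They were picked out with their values in view. The entry ms20600 (chromosome 8, 10032324 to 10033641, plus strand, 1318 bp) lies inside Ecr (GB48058), the receptor of the moulting hormone ecdysone, on the same strand. Its sense counts were 54 in eggs, 385 in testes, 348 in spermatheca, 52 in semen and 34 in ovaries. The sense counts of the whole Ecr gene were 59 in eggs, 391 in testes, 365 in spermatheca, 57 in semen and 41 in ovaries, so most reads of this gene lay on the entry.

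The entry ms28515 (chromosome 12, 860232 to 860588) had sense counts of 76 in eggs, 393 in testes, 387 in spermatheca, 57 in semen and 34 in ovaries. The entry ms46863 (GroupUn453, 731 to 1476) had 51 in eggs, 339 in testes, 361 in spermatheca, 60 in semen and 24 in ovaries. The entries ms34062 (chromosome 15, 2144880 to 2145590) and ms47056 (GroupUn601, 1 to 1250) had 334 and 364 sense counts in testes and 27 and 25 in ovaries. All 5 were on the plus strand and had at most 4 antisense counts in any tissue. Whether they share sequence or reads was not tested, so they are uncertain as separate signals.

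The antisense share of the unclassed counts was highest in testes, but it followed the leading entries. It was 57.5% (57.3 to 57.7%) in eggs, 87.5% (87.3 to 87.8%) in testes, 77.8% (77.5 to 78.1%) in spermatheca, 74.4% (72.9 to 75.8%) in semen and 49.2% (48.9 to 49.5%) in ovaries. The other TEs had antisense shares of 45.8% in eggs, 70.2% in testes, 53.9% in spermatheca, 32.2% in semen and 46.9% in ovaries. Without the leading unclassed entry of each tissue the share was 37.5% in eggs, 65.9% in testes, 41.4% in spermatheca, 36.6% in semen and 37.9% in ovaries. Testes remained highest, and in the other 4 tissues sense counts were then in the majority.

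Single entries were mostly read from 1 strand. Among unclassed entries with at least 10 counts, 84.3% of 159 in eggs, 79.6% of 137 in testes, 77.8% of 144 in spermatheca, 86.2% of 29 in semen and 83.6% of 165 in ovaries had at least 90% of their counts on 1 strand. The shares among the other TEs were 79.4% in eggs, 78.5% in testes, 83% in spermatheca, 91.9% in semen and 80% in ovaries. In eggs 69 entries were read antisense and 65 sense in this way, and in testes 50 and 59.

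Of the PotentialHostGene entries that overlap genes of 1 orientation, 419 lay on the strand of the gene and 406 on the opposite strand. All counts of such an entry were set by strand against the gene, also those beyond the bases shared with it. For ms46256, 899 antisense counts in spermatheca and 135 in semen were taken as against GB53877, which itself had 0 antisense counts there. The shares below therefore give the strand of reads on the entries, not of reads shown to lie on the genes. Counts along the strand of the gene made up 46.3% (44.4 to 48.3%) in eggs, 34.6% (33.9 to 35.4%) in testes, 48.3% (46.7 to 49.9%) in spermatheca, 64.2% (60.4 to 67.8%) in semen and 18.4% (17.2 to 19.7%) in ovaries. These values again turned on single entries, which were left out in turn after the data were seen, namely ms8487 in eggs and ovaries, ms508 in testes and ms46256 in spermatheca and semen. Without them, the share along the strand of the gene was 81.9% in eggs, 65.3% in testes, 63.7% in spermatheca, 80.8% in semen and 73.0% in ovaries. The testes value then rested on ms16913. Without the 2 leading entries of each tissue the share was 78.3% in eggs, 40.2% in testes (1983 of 4936 counts, without ms508 and ms16913), 70.2% in spermatheca, 76.5% in semen and 69.8% in ovaries, so no direction held in testes. ms13635 overlaps genes of both orientations and is not in these counts.

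The antisense counts of each tissue were compared with ovaries over the whole antisense TE table, keeping TEs that had 5 counts or more in 1 tissue of the pair and calling those that differed by over 5-fold after TMM scaling. A count under 3 was set to 3, so many ratios are bounds. Since ovaries are deeper than testes, spermatheca and semen, the filter and this floor favour higher calls. An entry with 5 counts in the tissue and 3 or fewer in ovaries is always called higher in these 3 tissues, whereas a lower call needs more than 48.1 ovary counts against testes, 122 against spermatheca and 5313 against semen. The counts of calls are therefore a description, and no balance of higher and lower calls is read from them. The same ovaries column is the baseline of all 4 comparisons, which are therefore not independent. In eggs, 146 unclassed entries could be compared, and 0 were higher and 3 lower than in ovaries (2.05%), against 2.8% and 2% of all 2003 TEs compared. The 3 lower entries were noCat, among them ms30486 (chromosome 13, 87051 to 89459) with antisense counts of 2 in eggs, 0 in testes, 1 in spermatheca, 0 in semen and 54 in ovaries, and ms48324 (GroupUn1943, 1 to 1031) with 2 in eggs, 0 in testes, 1 in spermatheca, 0 in semen and 15 in ovaries. The median log2 ratio over the 110 unclassed entries with more than 3 counts in both tissues was -0.12, against -0.08 over all TEs. TMM centres the ratios of this same table near 0, so no closeness of eggs and ovaries is read from these medians. Of the 110 entries 0 were higher and 0 lower by over 5-fold, against 1.82% and 0.879% of 1592 TEs.

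In testes, 84 of 196 unclassed entries (42.9%) were higher than in ovaries by over 5-fold, against 24.1% of the 2116 TEs compared. The 84 were 73 PotentialHostGene, 8 noCat and 3 unlabelled entries, and 62 of the ratios were bounds because ovaries had fewer than 3 counts, so these entries passed the filter through testes alone and had to be called. Among the 45 entries with more than 3 counts in both tissues 19 (42.2%) were higher and 9 (20%) lower, against 26.6% and 23.1% of 610 TEs. Another 33 entries (16.8%) were lower in testes, against 24.9% of all TEs, and these were 27 noCat and 6 PotentialHostGene entries, of which 22 lay in clusters. The largest drops were those of ms51576 and ms8487, which had 3 and 1 antisense counts in testes, against 5240 and 2895 in ovaries. The median log2 ratio over the 45 unclassed entries with more than 3 counts in both tissues was 1.95, against 0.39 over all TEs. On unscaled counts 35 entries were higher and 57 lower in testes, and with library totals 91 were higher and 18 lower.

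**Figure D4:**
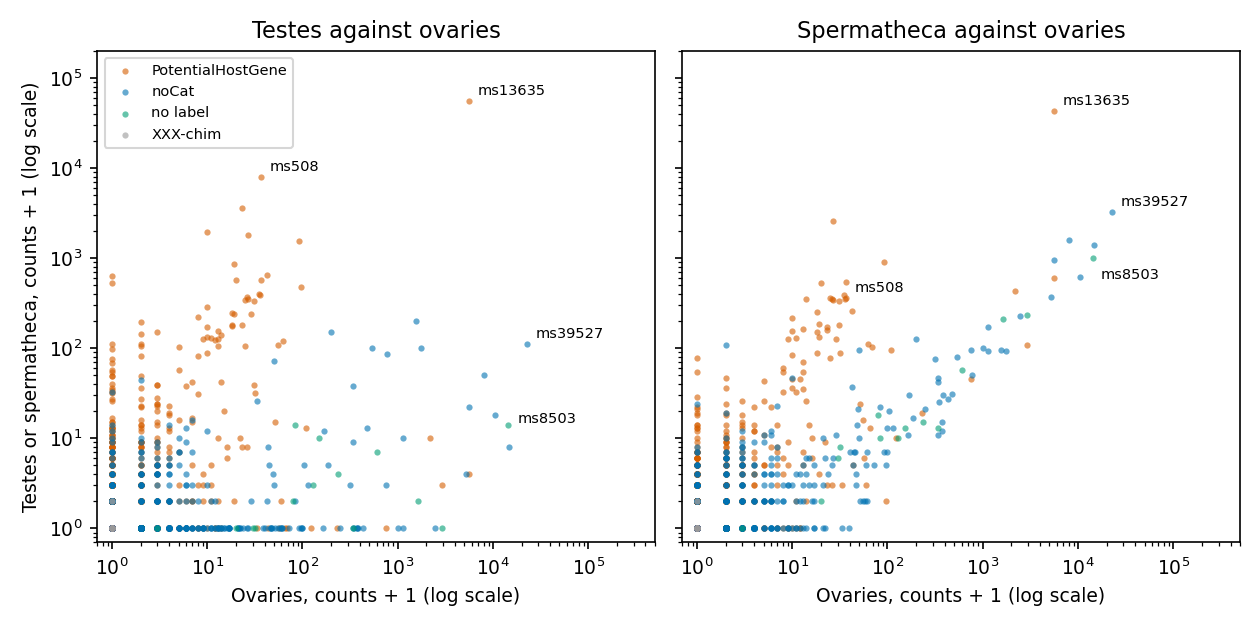
Counts plus 1 (sense plus antisense, log scales, not scaled for depth) of the unclassed entries in testes (left) and spermatheca (right) against ovaries, with points for each label. In testes PotentialHostGene entries such as ms508 (7868 counts in testes, 36 in ovaries) lie above and noCat entries such as ms39527 (110 in testes, 22978 in ovaries) far below, whereas in spermatheca ms39527 had 3262 counts.

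In spermatheca, 73 of 174 unclassed entries (42%) were higher than in ovaries, against 19.6% of the 1973 TEs compared, and 0 were lower, against 0.811%. The 73 were 61 PotentialHostGene and 12 noCat entries, with 39 ratios that were bounds and had to be called. Among the 78 entries with more than 3 counts in both tissues 30 (38.5%) were higher and 0 lower, against 17.6% and 1.08% of 1019 TEs. A higher call needed only 0.617 spermatheca counts per ovary count, so entries with the fewest ovary counts that passed this filter had to be called too. The noCat entry ms14301 (chromosome 6, 6270814 to 6277134, plus strand, 6321 bp), opposite to GB46042, GB46043 and GB46044, had antisense counts of 0 in eggs, 39 in testes, 108 in spermatheca, 1 in semen and 1 in ovaries. The PotentialHostGene entry ms48281 (GroupUn1905, 1030 to 1201, plus strand, 172 bp) had antisense counts of 4 in eggs, 92 in testes, 242 in spermatheca, 2 in semen and 10 in ovaries, a 196-fold difference between spermatheca and ovaries. The median log2 ratio over 78 entries was 1.48, against -0.07 over all TEs. Only 25 of the 174 entries had enough ovary counts for a lower call, and none of these 25 was lower by over 5-fold. Of the 3 spermatheca libraries 1 shared a flow cell with the testes libraries, and its part in these counts was not tested. On unscaled counts 21 entries were higher and 51 lower than in ovaries.

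In semen, 15 of 128 unclassed entries (11.7%) were higher than in ovaries, against 6.42% of the 1761 TEs compared, and 1 (0.781%) was lower, against 5.62%. The 15 were 13 PotentialHostGene entries, 1 noCat entry and 1 unlabelled entry. The single lower entry was noCat and lay in a cluster. Only 3 of the 128 entries had enough ovary counts to be called lower, and a higher call needed no more than 0.0141 semen counts per ovary count, so the 15 and the 1 cannot be set against each other. The direction turned with the scaling, since on unscaled counts 0 entries were higher and 64 lower in semen. With the TMM scale taken without the filter on low counts 13 were higher and 24 lower. The median log2 ratio over the 12 unclassed entries with more than 3 counts in both tissues was 8.36, against 2.89 over all TEs. At this scale more than 3 semen counts give a high ratio unless the ovary count is large. Of the 12 entries 11 (91.7%) were higher by over 5-fold, against 50.3% of all TEs kept in this way. These medians are therefore shaped by the filter, and no difference is read from them. With 2534 antisense counts on unclassed entries in semen, an entry with 0 counts there is not shown to be absent.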

How the data were processed

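Counts were deposited by the authors as 4 tables, for TEs and genes in the sense and antisense direction, each with 1 column for each of the 5 tissues and a feature length. Per the methods, reads were mapped to Amel 4.5 with CLC Genomics, reads annotated as other known RNAs were removed, and reads of 26 to 31 nt were taken as putative piRNAs. The authors made the counts with featureCounts of Rsubread, and the submitters' processing notes also name Bowtie 1.2.3. How libraries were combined into a column, and how reads with several positions or in overlapping features were counted, is not given in the sources used here. Overlap matters for 68 unclassed entries that share bases with another TE entry.

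The 3057 entries and the lists were chosen with earlier results of these data known. Shares were computed with 95% Wilson intervals. Each tissue was set against ovaries on antisense counts with TMM scaling (edgeR 4.0.16), a minimum of 5 counts in 1 of the pair, a fold over 5 and a floor of 3 counts. Library totals, DESeq2 1.42.0 size factors, unscaled counts and a run without the 5-count filter were tried as alternatives. That last run took the TMM scale over unfiltered TEs and still compared only TEs with more than 3 counts in 1 of the pair. The scaling step was also run on simulated counts drawn from the ovary profile with a limited set of TEs changed. That setting does not cover columns that differ from ovaries as widely as testes and semen do. It therefore does not settle the scale for them. A quasi-likelihood test between replicates was not possible with 1 column per tissue. Named entries are the 3 with the most counts in each tissue, the 2 with the largest fold in each direction of each comparison, and any with at least 10% of the unclassed counts of a tissue. Others are said to be picked out. Genes overlapping by at least 1 base were taken from the gene tables, and 11390 of 15313 carried a RefSeq identifier, all matched to symbols of the later assembly Amel_HAv3.1, used for names only. Cluster positions came from the study's supplementary list. Python 3.11.15, pandas 2.3.3, numpy 2.4.6, matplotlib 3.10.9 and R 4.3.3 were used.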

Additional observations from a re-analysis of the deposited data

How the results depend on the processing

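No paired analysis was possible because each tissue has 1 pooled column with no replicate number, and for the same reason no replicate could be left out. Of 80 values under alternatives, 22 stayed within the counting interval or within 1.5 times the count and 58 moved. With chromosome 16 in the denominator, the share of TE counts on unclassed entries was 0.189% in eggs, 7.55% in testes, 1.14% in spermatheca, 2.55% in semen and 0.218% in ovaries. Without the leading unclassed entry it was 0.612% in eggs, 3.63% in testes, 1.84% in spermatheca, 1.10% in semen and 0.804% in ovaries. Without the leading TE outside chromosome 16, an alternative chosen after seeing the data, it was 0.983% in eggs, 9.99% in testes, 5.19% in spermatheca, 7.25% in semen and 1.07% in ovaries. Without the leading unclassed entry the antisense share was 37.5% in eggs, 65.9% in testes, 41.4% in spermatheca, 36.6% in semen and 37.9% in ovaries, and the share inside clusters was 87.3% in eggs, 3.41% in testes, 45.8% in spermatheca, 2.32% in semen and 82.6% in ovaries. At 10 or more counts, 159 entries were detected in eggs, 137 in testes, 144 in spermatheca, 29 in semen and 165 in ovaries. Unscaled antisense counts gave 1 lower entry in eggs, 35 higher and 57 lower in testes, 21 higher and 51 lower in spermatheca, and 0 higher and 64 lower in semen. With library totals 6 were lower in eggs, 18 lower in testes and 5 lower in semen. With DESeq2 size factors 5 were lower in semen. With more than 3 counts required in both tissues, also chosen after seeing the data, 0 were lower in eggs, 19 higher and 9 lower in testes, 30 higher in spermatheca and 0 lower in semen. With the TMM scale taken without the filter on low counts 2 were lower in spermatheca and 24 in semen. The cause of these changes was not tested beyond the entries and scalings themselves. Depth limits semen most, where the unclassed entries had 3408 counts.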
